A study of Mus musculus with 23 samples.

Results

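The mouse genes named Zfp900 to Zfp999 form a numbered run of zinc finger genes, and 62 of them had a counted sequence among the 22350 genes of the series. They were chosen by symbol alone (Zfp9 followed by 2 more digits in GENCODE vM21), and 64 annotated symbols matched. The run itself was picked for description with earlier results of these data known, so every count over the members is a description and no test was made over them as a set. The study compared intestinal organoids and mouse small intestine that had or had lost Rptor, the gene of the mTORC1 subunit Raptor. RNA-seq of organoids covered WT lines (VillinCre.ERT2.RPL22.HA, 2 lines in 4 libraries), Rptor fl/fl lines (VillinCre.ERT2.Rptor.fl/fl, 2 lines in 4 libraries) and stem cell enriched cultures, called SCe (VillinCre.ERT2.RPL22.HA, 3 cultures). The SCe medium held CHIR 99021, an inhibitor of the kinase GSK3, and valproic acid, an inhibitor of histone deacetylases. Ribo-seq, the sequencing of ribosome-protected footprints, covered 3 Rptor fl/fl (VillinCre.ERT2.Rptor.fl/fl.RPL22.HA) and 3 SCe organoid cultures. It also covered ribosomes from the small intestine of 3 WT mice (Lgr5Cre.ERT2.RPL22.HA) and of 3 others with floxed Rptor (Lgr5Cre.ERT2.Rptor.fl/fl.RPL22.HA). All were labelled C57BL/6, and the study's methods describe tamoxifen to delete Rptor although the libraries are labelled untreated. In the mice, the Cre acts in cells that express Lgr5 and the HA tag lets ribosomes be pulled down from them. In the organoids, Villin drives the Cre throughout the epithelium.

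Most numbered mouse zinc finger genes encode proteins with a row of C2H2 zinc fingers, which read DNA, behind a KRAB domain, which recruits the corepressor Trim28. Trim28 brings in the histone methyltransferase Setdb1 and the HP1 proteins Cbx1, Cbx3 and Cbx5, and the targets are often retrotransposons. Many of these genes lie in clusters that arose by repeated duplication, so that neighbours can be nearly identical. A read from such a gene can match several genes, and a program such as Salmon then divides it between them by estimation.

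The members lay in 3 large clusters and in smaller groups elsewhere, where members less than 1 megabase apart were joined. On chromosome 4, 16 members stood between 145510759 and 147848366. On chromosome 17, 10 members stood between 21567008 and 22867134, and on chromosome 2, 9 members stood between 175372436 and 178078476 (all GRCm38). The other 27 members were elsewhere, among them 4 that lay together on chromosome 7.

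How far RNA-seq reads could tell the members apart was measured as the share of each gene's 31-base words found in no other counted gene. Salmon seeds its matches by default with words of 31 bases. The study selected footprints at lengths mostly below 31 bases, so the share does not measure how far footprints can be told apart. The median over the 62 members was 65.2%, with 21 members above 90% and 14 below 20%. The medians were 19.4% on chromosome 2, 29.0% on chromosome 4 and 87.4% on chromosome 17. Zfp969 and Zfp935 had no word of their own: all words of Zfp969 were also in Zfp968, and 99.2% of those of Zfp935 were also in Gm49359. By contrast, 94.4% of the words of Zfp941 and 95.1% of those of Zfp950 were in no other gene. The words came from whole GENCODE transcripts, whereas the sequences the authors counted on were up to 103 bases longer in RNA-seq and mostly shorter in Ribo-seq. The deposited estimates carried the same mark: 84.2% to 93.3% of the members with reads in an RNA-seq library had a summed count that was not whole within 0.02, against 26.3% to 28.3% of all genes.

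**Figure D1:**
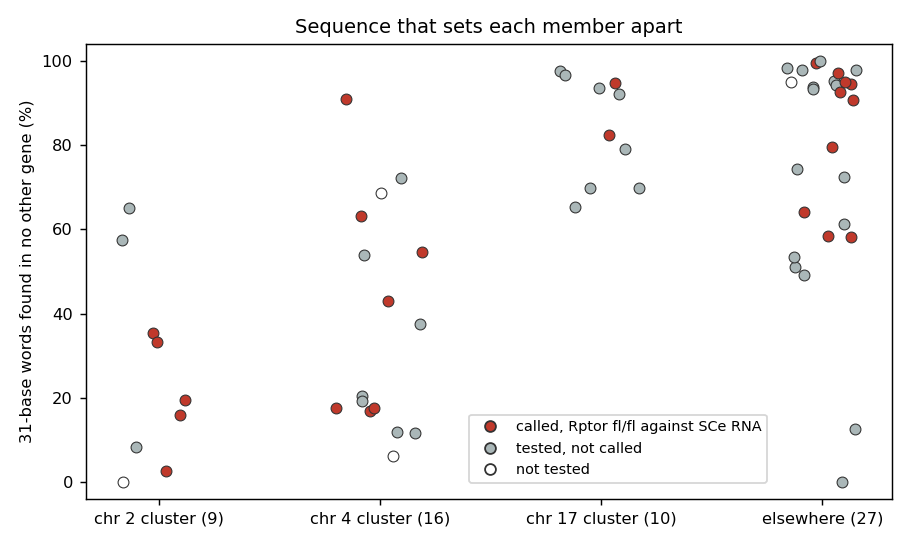
Each point is 1 of the 62 members, placed by genome cluster on the x axis, with the share of its 31-base words found in no other counted gene (%) on the y axis. Red points were called in RNA-seq of Rptor fl/fl against SCe organoids, grey points were tested and not called, and white points were not tested. The chromosome 2 cluster lies between 0% and 65.1%, and the chromosome 17 cluster between 65.3% and 97.6%.

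Promoter windows show how alike the clustered members are before their RefSeq starts. They are printed for 7 members: Zfp966, Zfp970, Zfp950, Zfp980 and Zfp981, which were called in RNA-seq, and Zfp965 and Zfp979, near copies that were not called or not tested. Some windows reach into the gene as GENCODE annotates it, and that of Zfp981 lies wholly within it. RefSeq promoter entries (GRCm38.p6) were matched for 52 member symbols with 59 entries, and the 250 bases before each start were read. Zfp990 is not among them. The windows of Zfp965, Zfp966, Zfp968, Zfp970, Zfp971 and Zfp973 on chromosome 2 were 70.3% to 99.6% identical over their 15 pairs. They shared an unbroken run of 83 bases, which 19 of 32851 promoters held (0.0578%). Zfp950, alone on chromosome 19, shared with them a run of 15 bases that 24 promoters held (0.0731%), and its window was 55.6% to 68.8% identical to theirs. The windows of Zfp979, Zfp980 and Zfp981 on chromosome 4 were 72.2% to 89.0% identical and shared a run of 15 bases that 12 promoters held (0.0365%). Each window was cut at its own RefSeq start, and bases left unpaired at the ends counted as differences. Identity therefore falls with the offset of the starts as well as with changed letters. The run of 83 bases began 123 bases before the start of Zfp965 and 83 before that of Zfp973. The chromosome 4 run began 141 bases before the start of Zfp979 and 164 before that of Zfp981. Capitals mark the run each set shares.
Zfp966, chr2:175931101-175931350, minus strand: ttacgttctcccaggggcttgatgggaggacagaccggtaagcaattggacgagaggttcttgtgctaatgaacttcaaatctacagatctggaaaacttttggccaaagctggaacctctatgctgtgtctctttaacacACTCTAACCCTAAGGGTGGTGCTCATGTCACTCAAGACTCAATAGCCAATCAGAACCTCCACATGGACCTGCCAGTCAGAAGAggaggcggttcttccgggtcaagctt
Zfp970, chr2:177464492-177464741, plus strand: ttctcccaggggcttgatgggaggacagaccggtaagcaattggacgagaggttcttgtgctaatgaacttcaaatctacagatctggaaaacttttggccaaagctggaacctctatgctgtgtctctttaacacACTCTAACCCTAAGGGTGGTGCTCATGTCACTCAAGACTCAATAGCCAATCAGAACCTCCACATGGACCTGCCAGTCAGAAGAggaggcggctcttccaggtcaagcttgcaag
Zfp965, chr2:175469775-175470024, plus strand: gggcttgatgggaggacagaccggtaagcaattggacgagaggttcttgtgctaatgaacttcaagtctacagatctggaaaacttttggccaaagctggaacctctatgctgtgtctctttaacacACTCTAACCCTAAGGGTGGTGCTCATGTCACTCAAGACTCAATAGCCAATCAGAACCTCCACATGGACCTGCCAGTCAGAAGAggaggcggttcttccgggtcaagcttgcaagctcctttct
Zfp950, chr19:61140841-61141090, minus strand: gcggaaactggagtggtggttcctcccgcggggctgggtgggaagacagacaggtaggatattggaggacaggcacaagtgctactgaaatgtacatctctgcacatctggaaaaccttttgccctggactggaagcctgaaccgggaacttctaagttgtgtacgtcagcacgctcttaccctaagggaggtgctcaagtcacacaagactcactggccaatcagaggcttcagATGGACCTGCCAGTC
Zfp980, chr4:145670447-145670696, plus strand: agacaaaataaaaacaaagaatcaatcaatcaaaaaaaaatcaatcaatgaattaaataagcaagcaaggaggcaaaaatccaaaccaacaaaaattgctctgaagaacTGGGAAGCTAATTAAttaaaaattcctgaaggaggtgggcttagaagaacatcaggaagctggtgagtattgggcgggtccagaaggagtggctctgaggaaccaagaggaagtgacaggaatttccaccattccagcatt
Zfp981, chr4:146514670-146514919, plus strand: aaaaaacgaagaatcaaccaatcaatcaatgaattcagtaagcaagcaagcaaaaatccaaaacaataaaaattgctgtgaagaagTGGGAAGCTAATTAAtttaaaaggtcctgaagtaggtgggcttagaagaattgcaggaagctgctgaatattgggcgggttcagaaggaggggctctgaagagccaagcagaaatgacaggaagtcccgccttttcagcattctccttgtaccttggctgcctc
Zfp979, chr4:147642509-147642758, minus strand: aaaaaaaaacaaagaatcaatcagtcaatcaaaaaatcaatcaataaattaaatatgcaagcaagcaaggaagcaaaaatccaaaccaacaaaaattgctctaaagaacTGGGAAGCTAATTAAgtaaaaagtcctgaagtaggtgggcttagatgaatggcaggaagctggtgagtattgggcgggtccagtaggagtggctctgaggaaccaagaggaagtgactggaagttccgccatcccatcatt

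The letters CCAAT, on either strand, were in 45 of the 59 member windows (76.3%) against 33.8% of all promoter windows of that length, and each of the 10 windows compared above held them. TATAAA was in none of the 59 member windows against 12.4% of all. The median GC content was 50.4% in the member windows and 52.4% in all. These counts describe letters only, and nothing was tested about any factor.

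Across the 7 RNA-seq lines and cultures the members together took 0.0685% to 0.0813% of all reads, and 50 to 59 of the 62 members had at least 10 reads. Per kilobase of transcript, the median member stood at 4.37 RPKM (reads per 1000000 and per kilobase of transcript) against 1.54 for all genes. Zfp970 had the highest mean, 49.1 ± 12.2 RPKM (SD, n = 7), followed by Zfp950 with 27.1 ± 6.37 and Zfp932 with 24.2 ± 1.17 (SD, n = 7 each). Zfp932, a repressor of endogenous retroviruses, varied least of these. Its level ran from 28.2 to 31.2 CPM (reads per 1000000 reads of the library, scaled by TMM factors) over all 7 samples. It was called in no comparison in which it was tested. Zfp972 with 20.4 ± 4.34 and Zfp965 with 16.8 ± 3.17 RPKM (SD, n = 7) came next; the range of Zfp972 overlapped that of Zfp932 and the range of Zfp965 did not. At the other end, Zfp969 had no read in any RNA-seq library, and Zfp957 and Zfp979 had reads in SCe cultures only, 8 in all for Zfp979.

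Depth and labels set how far the comparisons reach. RNA-seq totals per line or culture were 27439432 to 67598842 reads, organoid Ribo-seq totals 1106157 to 8257453 and mouse totals 772034 to 8238353, and 5 to 39 members reached 10 footprints in an organoid library and 4 to 33 in a mouse library. Rptor RNA was 51.5 and 47.9 CPM in WT, 60.8, 54.0 and 53.7 in SCe and 14.8 and 15.5 in Rptor fl/fl organoids (log2 difference -1.71 ± 0.084, SE, adjusted p = 0.00516 against WT). Its footprints did not pass the test in organoids (adjusted p = 0.318), where the groups overlapped, or in mice (adjusted p = 0.15). In mice they were 41.5, 39.5 and 44.5 CPM in WT and 32.5, 34.25 and 36.7 in Rptor fl/fl, without overlap. Ribo-seq results are therefore given for the libraries labelled Rptor fl/fl. SCe culture 1 stood apart from the others over the members, with a median absolute log2 difference of 0.411 from culture 2 and 0.269 from culture 3, against 0.126 between cultures 2 and 3. All adjusted p-values are from edgeR's quasi-likelihood test with Benjamini-Hochberg adjustment over all genes tested, and a gene was called where this was under 0.05. The RNA-seq groups each enter 2 of the 3 RNA-seq comparisons, which are therefore not independent. Where no source says that lines or cultures came from separate animals, a p-value measures only the spread between these samples.

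In RNA-seq of Rptor fl/fl against WT organoids, few members moved: Zfp966, Zfp970 and Zfp948 rose and none fell. Of 53 members tested, 3 were called (5.66%), against 22.6% of the 14131 genes tested (11.6% higher, 11.0% lower). The median log2 difference of the members was 0.04, and that of all genes was -0.00. Zfp966 stood at 46.8 and 50.1 CPM in Rptor fl/fl and at 30.1 and 32.9 in WT organoids, and the groups did not overlap (log2 difference 0.62 ± 0.083, SE, adjusted p = 0.0165). Zfp970 stood at 42.4 and 40.8 CPM against 33.2 and 29.9 in WT, again without overlap (0.40 ± 0.085, adjusted p = 0.0353). Zfp948 stood at 24.1 and 24.8 CPM against 19.4 and 19.9, also without overlap (0.32 ± 0.076, adjusted p = 0.0465).

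Zfp966 and Zfp970, both on chromosome 2, had 19.4% and 35.3% of their words to themselves, so part of each value is an estimate of which copy a read came from. Members were therefore also summed with every gene that holds at least 0.5 of their words, a choice made after the data were seen. Zfp965, Zfp966, Zfp968, Zfp969 and Zfp973 (with Gm14288 and Gm14440) together gave 118 and 121 CPM in Rptor fl/fl and 89.2 and 85.2 in WT (log2 difference 0.45 ± 0.055, SE, adjusted p = 0.0146). This sum does not depend on how reads were divided within the group, but it can depend on reads shared with genes outside it. Zfp970 entered none of the sums, as the gene nearest to it, Gm14288, held 38.6% of its words. Zfp948 had 96.5% of its words to itself. With 2 lines against 2, each call rests on both lines of a group: Zfp948 and Zfp970 were called in 0 of the 4 fits that left out 1 line. Zfp966 was called in 3 of those 4, the exception being the fit without WT line 1 (adjusted p = 0.066). The call of Zfp948 was also lost without the filter on low counts and with a length offset. The WT lines carry RPL22.HA in their label and the Rptor fl/fl lines do not, so line, tag and loss of Rptor cannot be told apart here.

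The SCe cultures held the larger differences. Against them, the Rptor fl/fl lines had 12 members higher and 12 lower among 58 tested (41.4%; Zfp957, Zfp969, Zfp979 and Zfp986 fell below the filter on low counts), against 42.7% of the 15103 genes tested (21.0% higher, 21.8% lower). Against WT, the SCe cultures had 12 members higher and 11 lower among 57 tested (40.4%), against 42.3% of the 14925 genes tested (22.4% higher, 19.9% lower). The members' medians were 0.01 and -0.02 on the log2 scale, and those of all genes -0.01 and 0.02. The share of members called was thus near that of all genes in both comparisons. In bulk samples, fewer cells of a type and less RNA per cell cannot be told apart, and the cell type markers moved too: the summed level of the 4 goblet markers was 2633 to 3671 CPM in Rptor fl/fl, 1423 to 1474 in WT and 231 to 408 in SCe. The 5 adult stem cell markers summed to 803 to 2042, 3561 to 5126 and 826 to 1606 CPM in the same order, and the 4 Paneth markers to 457 to 976, 2768 to 3299 and 317 to 2428. The 6 epithelial markers summed to 6719 to 6789, 6369 to 6716 and 4019 to 4382 CPM, and the 5 enterocyte markers to 5027 to 7751, 5589 to 6158 and 235 to 5143. The adult stem cell markers did not all move as their sum did. For SCe against WT, 2 of these 5 were called lower and none higher, and their median log2 difference was 0.11. For Rptor fl/fl against SCe, 2 were higher and 2 lower (median -1.2). For Rptor fl/fl against WT, 4 were lower and none higher (median -1.11). The low ends of the SCe ranges for Paneth and enterocyte markers were both culture 1 (317 against 1960 and 2428 CPM, and 235 against 4532 and 5143), the culture that also stood apart over the members. Without it, 31 members were called in each of the SCe comparisons. Whether these shifts bear on the members was not tested.

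Zfp990 had the widest difference between SCe and the other groups among the members called. It had 69.7, 93.3 and 78.05 CPM in the 3 SCe cultures, 0.718 and 0.907 in WT and 1.06 and 1.08 in Rptor fl/fl. Every SCe culture was thus above every other sample by a wide margin, and the difference of Rptor fl/fl from WT did not pass the test (log2 difference 0.40 ± 0.26, SE, adjusted p = 0.308). The SCe level was 100-fold that of WT (log2 difference 6.65 ± 0.23, adjusted p = 0.000913) and 74.5-fold that of Rptor fl/fl (log2 difference of Rptor fl/fl from SCe -6.22 ± 0.19, adjusted p = 0.00096). In RPKM, which allows for the length of the transcript in use, the SCe cultures stood at 27.4, 35.9 and 31.1 and the other lines between 1.67 and 2.41, and a fit with effective length as an offset gave 4.19 against WT (adjusted p = 0.00135).

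The reads were also assigned to different transcripts of Zfp990. GENCODE lists a transcript of 4 exons and one of 5 exons that both hold the coding sequence of 1815 bases, and a short one of 5 exons with 134 coding bases that ends before the last exon, where genes of this family hold their zinc fingers. In WT and Rptor fl/fl lines 76.1% to 91.1% of the 38 to 62 reads of the gene were assigned to the short transcript. In SCe cultures 82.4% to 96.4% of 2083 to 5940 reads were assigned to the 4-exon transcript, and 1.01% to 1.65% to the short one, which is still 28.7 to 74.7 reads. The short transcript had 34.4 and 34.9 reads in WT and 47.5 and 49.9 in Rptor fl/fl. The 54.7% of words that Zfp990 shares with no other gene were counted over all its transcripts, and its nearest relative, Zfp534, held 25.2% of its words.

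**Figure D2:**
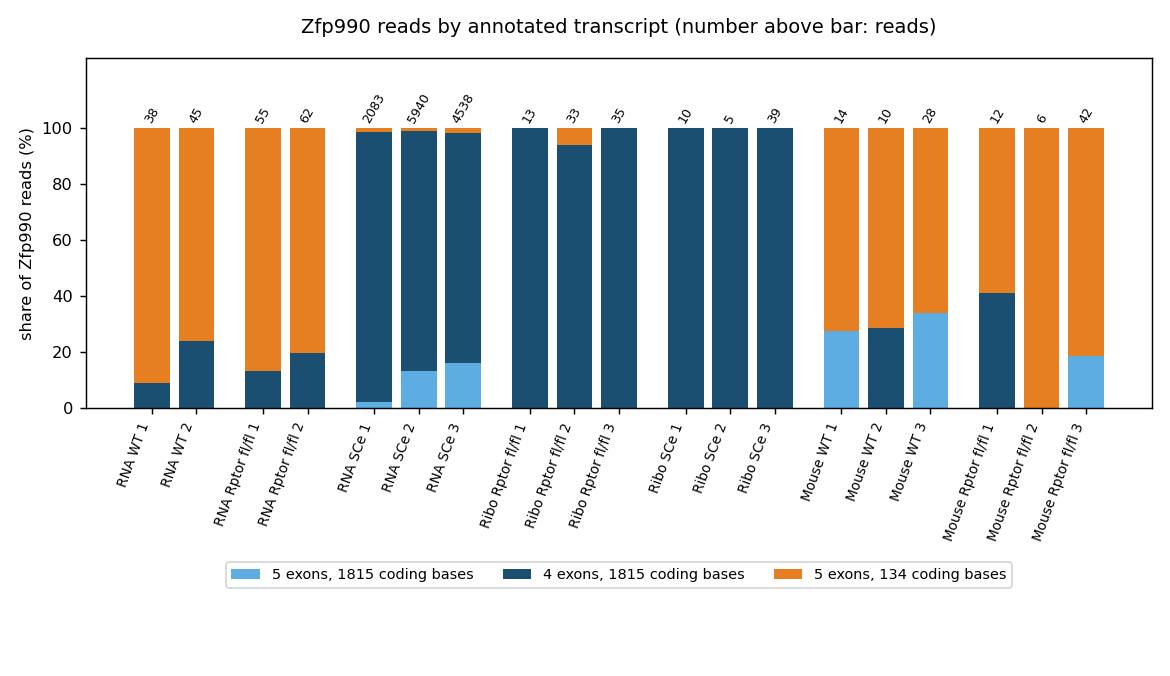
Bars give the share of Zfp990 reads (%) that the deposited estimates assign to each annotated transcript, 1 bar per line, culture or mouse, with the rounded reads of the gene above each bar. In RNA-seq the short transcript with 134 coding bases (orange) takes 76.1% to 91.1% of the reads in WT and Rptor fl/fl lines and under 2% in SCe cultures. Ribo-seq sequences were cut to other lengths, so shares are not comparable between RNA-seq, organoid Ribo-seq and mouse.

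A further 3 members with low RNA were also higher in SCe. Zfp941, on chromosome 7, had 2.47, 2.43 and 2.01 CPM in SCe, 0.227 and 0.302 in WT and 0.29 and 0.507 in Rptor fl/fl, without overlap between SCe and the rest (log2 difference from WT 3.13 ± 0.31, SE, adjusted p = 0.00264). Zfp981 had 1.97, 0.942 and 1.15 CPM in SCe, 0.0189 and 0.0403 in WT and 0.136 and 0.105 in Rptor fl/fl. Zfp980 had 1.20, 0.785 and 0.791 CPM in SCe, 0.0378 and 0.0202 in WT and 0.0387 and 0 in Rptor fl/fl. These latter 2 rest on 3 reads each in WT against 186 and 132 in SCe, which gives ratios of 41.9 (95% exact counting interval 14.1 to 205) for Zfp981 and 29.7 (9.96 to 146) for Zfp980. Both passed the test against both groups (largest adjusted p = 0.00722), and both lie in the chromosome 4 cluster, where Zfp980 has 17.5% and Zfp981 43.0% of its words to itself.

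The chromosome 4 members moved in 1 direction wherever they were called. Of 14 tested, 7 were lower in Rptor fl/fl than in SCe (21.8% of all genes were) and none higher. Of 13 tested, 7 were higher in SCe than in WT (22.4% of all genes were) and none lower. The median log2 differences were -1.73 and 1.74. Members without reads in a group are given as bounds: Zfp978 had 21 reads over the SCe cultures and none in WT or Rptor fl/fl, at least 4.73-fold and 5.02-fold higher against a floor of 3 reads over the group, in each case with reads in all 3 SCe cultures. Zfp986 had 65 reads in SCe culture 2, none in cultures 1 and 3 or in WT, and 4 and 1 in Rptor fl/fl, so no fold is given for it. All 6 other genes tested between the ends of the cluster went the same way in both comparisons, among them Zfp600, Zfp534 and Rex2. Since these genes share words, sums over near-identical genes are given too. Zfp534 with Zfp986, Zfp987, Zfp988 and Zfp989 had 228, 766 and 507 reads in SCe, 35 and 52 in WT and 15 and 38 in Rptor fl/fl (log2 difference of SCe from WT 3.49 ± 0.35, SE, adjusted p = 0.00286). Rex2 with Zfp600, Zfp978, Zfp979 and Zfp980 had 181, 214 and 238 reads in SCe, 11 and 15 in WT and 9 and 21 in Rptor fl/fl (4.15 ± 0.42, adjusted p = 0.00283). In both sums every SCe culture lay above every other sample. Zfp993 had 6.75, 11.7 and 8.63 CPM in SCe against 2.17 and 3.33 in WT (1.74 ± 0.34, adjusted p = 0.0142), but 86.9% of its words are in Zfp991, and the sum of Zfp991, Zfp992 and Zfp993 did not pass the test (0.03 ± 0.45, adjusted p = 0.961). Zfp982 (72.2% own words) had 0.669, 0.675 and 0.602 CPM in SCe against 0.151 and 0.242 in WT, without overlap (1.73 ± 0.36, adjusted p = 0.0173). Zfp933, at the end of the cluster with 91.0% own words, moved less: 20.1, 18.6 and 20.5 CPM in SCe, 14.1 and 14.7 in WT (0.47 ± 0.092, adjusted p = 0.0143) and 13.5 and 14.1 in Rptor fl/fl.

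The chromosome 2 members went the other way. Of 8 tested, 5 were higher in Rptor fl/fl than in SCe (21.0% of all genes were) and none lower. Of these 8 members, 4 were lower in SCe than in WT (19.9% of all genes were) and none higher. The members' median log2 differences were 0.86 and -0.41. Zfp966 had 21.2, 15.9 and 20.6 CPM in SCe, below both other groups (log2 difference of Rptor fl/fl from SCe 1.34 ± 0.15, SE, adjusted p = 0.0029). Zfp970 had 26.4, 24.2 and 24.4 CPM in SCe, also below both other groups (0.74 ± 0.080, adjusted p = 0.00282). Zfp971 had 7.02, 5.17 and 5.52 CPM in SCe, 12.1 and 13.0 in WT and 14.7 and 13.7 in Rptor fl/fl (1.27 ± 0.18, adjusted p = 0.00543). Zfp968 had 3.58, 2.97 and 2.68 CPM in SCe, 6.12 and 5.32 in WT and 7.80 and 8.31 in Rptor fl/fl (1.39 ± 0.20, adjusted p = 0.00556), although only 2.67% of its words are its own. The sum of Zfp965, Zfp966, Zfp968, Zfp969 and Zfp973 with their near copies was 69.0, 52.0 and 62.9 CPM in SCe, below the WT and Rptor fl/fl sums given above (0.96 ± 0.13 for Rptor fl/fl from SCe, adjusted p = 0.00493, and -0.49 ± 0.13 for SCe from WT, adjusted p = 0.0332). Of the 25 other genes tested within the cluster's bounds, 5 were higher in Rptor fl/fl than in SCe and 1 lower, against 21.0% and 21.8% of all genes. The lower gene was Gm14434 (-3.07 ± 0.59, adjusted p = 0.0128), named after its value was seen. The windows of Zfp965 and Zfp966 printed above hold the same 83 bases, while Zfp965 was called in no comparison. Zfp965 has only 8.38% of its words to itself, and 76.2% are in Zfp968. Its own count therefore rests largely on how reads were divided, and whether it differs from Zfp966 in expression was not tested.

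**Figure D3:**
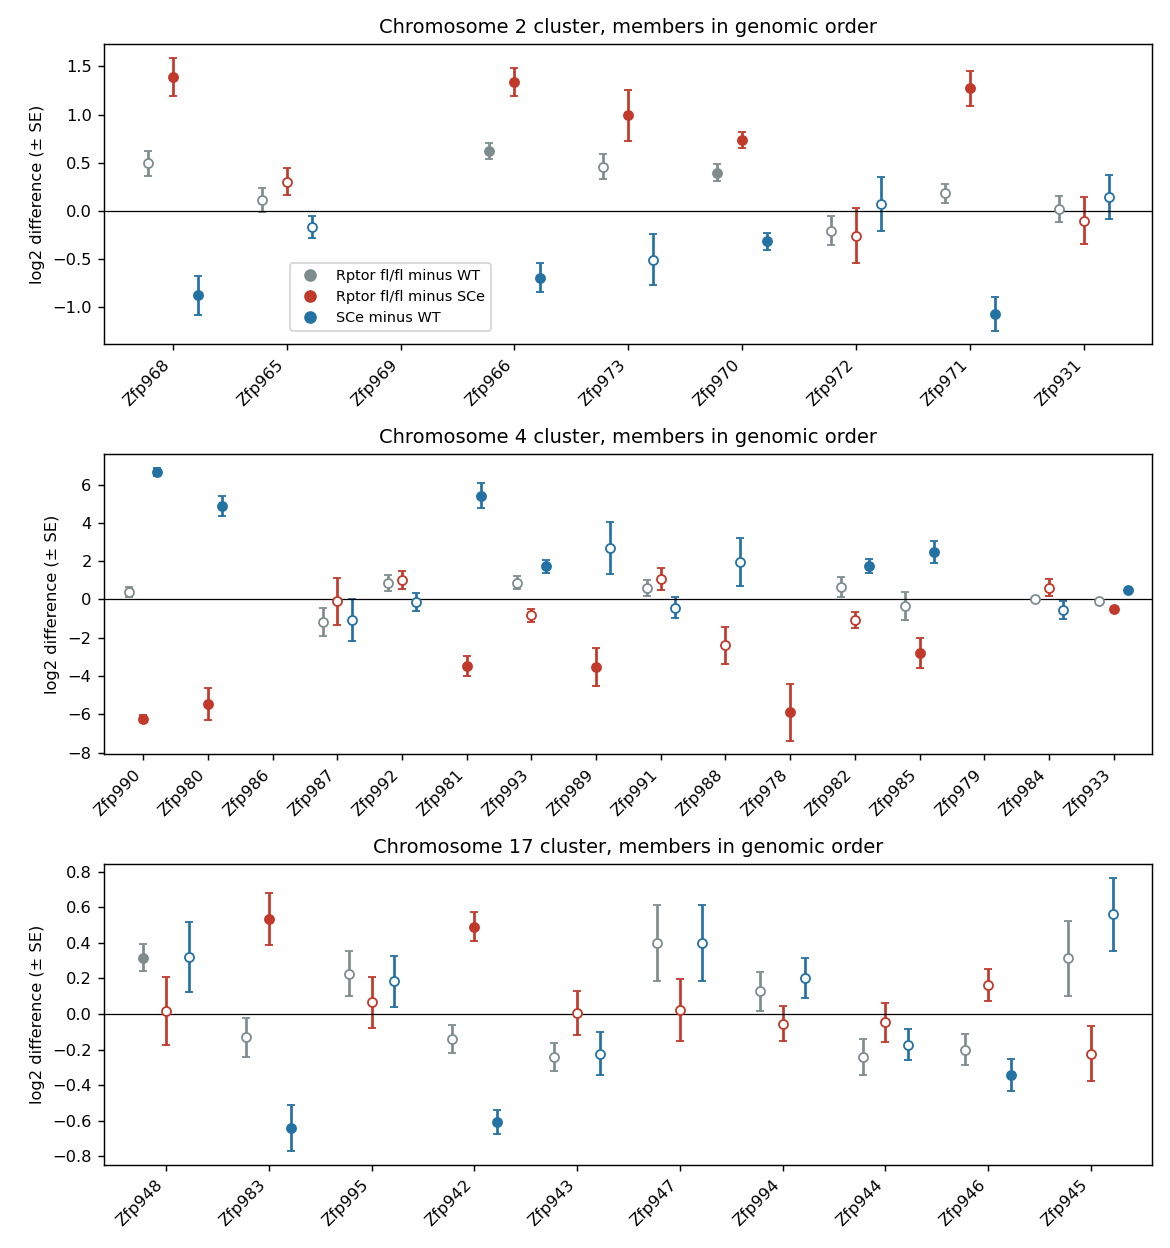
Log2 differences (y axis, with SE bars) of the members of the 3 large clusters in genomic order (x axis) for Rptor fl/fl minus WT (grey), Rptor fl/fl minus SCe (red) and SCe minus WT (blue). Filled points were called and open points were not. On chromosome 4 all filled red points are below 0 and all filled blue points above it, and on chromosome 2 it is the reverse.

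Of the other near-identical sums, Zfp960 with Zfp97 was lower in Rptor fl/fl than in WT (log2 difference -0.32 ± 0.079, SE, adjusted p = 0.0495), although Zfp960 alone was not called, and Zfp984 with Gm13212 was called in no comparison.

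On chromosome 17, 2 of 10 members were higher in Rptor fl/fl than in SCe, against 21.0% of all genes, and 3 were lower in SCe than in WT, against 19.9%. The members' medians in these comparisons were 0.02 and 0.01. Zfp942 had 24.5, 25.1 and 24.4 CPM in SCe, 37.4 and 38.8 in WT and 33.2 and 36.0 in Rptor fl/fl, so SCe was below both (log2 difference of SCe from WT -0.61 ± 0.067, SE, adjusted p = 0.00337). Zfp983 had 5.62, 5.59 and 5.40 CPM in SCe against 8.57 and 8.93 in WT (-0.64 ± 0.13, adjusted p = 0.0159). None of the 4 members of the chromosome 7 group was called in any comparison in which it was tested.

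Among the members that stand alone, Zfp950 had 48.7, 39.8 and 38.9 CPM in SCe, 73.1 and 62.4 in WT and 75.1 and 80.9 in Rptor fl/fl (log2 difference of Rptor fl/fl from SCe 0.88 ± 0.12, SE, adjusted p = 0.00523). Every SCe culture was below every other sample. Zfp937 had 15.0, 11.9 and 12.6 CPM in SCe, 25.7 and 26.2 in WT and 19.1 and 23.1 in Rptor fl/fl, with no overlap of SCe and the others (SCe from WT -0.96 ± 0.12, adjusted p = 0.0048). Zfp949 had 4.92, 5.70 and 4.97 CPM in SCe against 8.32 and 10.5 in Rptor fl/fl (0.86 ± 0.18, adjusted p = 0.0165). Zfp974 had 7.12, 6.01 and 7.04 CPM in SCe against 11.5 and 11.0 in WT (-0.72 ± 0.14, adjusted p = 0.0132). Of the members higher in SCe, Zfp958 had 28.3, 28.9 and 24.8 CPM there, 14.7 and 17.2 in WT and 18.3 and 16.6 in Rptor fl/fl (SCe from WT 0.80 ± 0.12, adjusted p = 0.00731). Zfp940 had 15.6, 12.8 and 13.1 CPM in SCe against 7.03 and 8.95 in WT and 7.59 and 8.87 in Rptor fl/fl (0.81 ± 0.17, adjusted p = 0.0179).

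**Figure D4:**
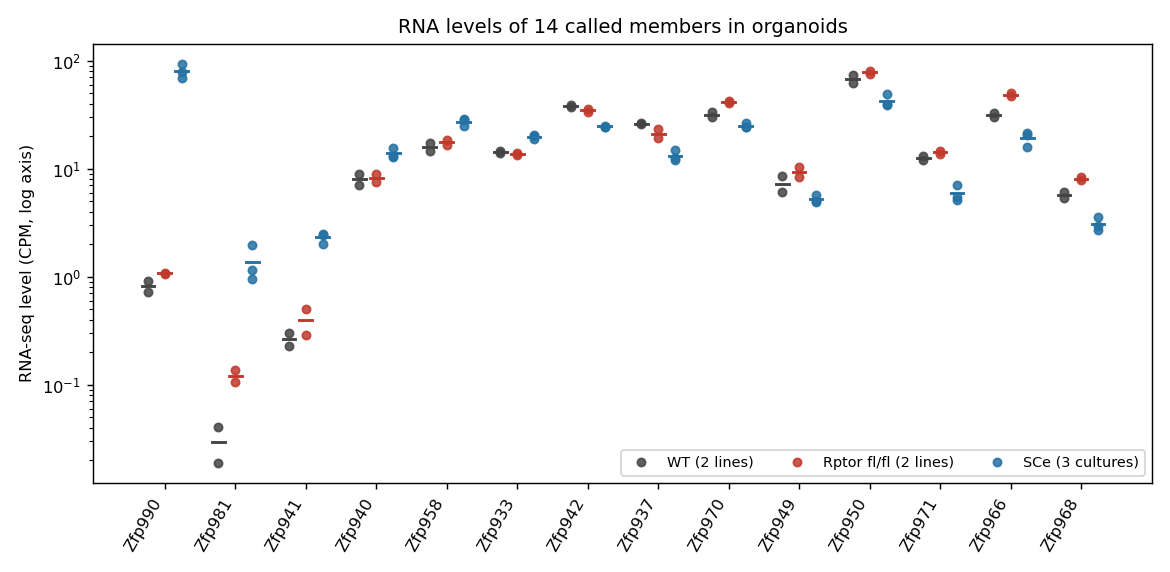
RNA-seq levels (y axis, CPM on a log axis) of 14 of the 15 members with the smallest adjusted p for Rptor fl/fl against SCe, ordered by log2 difference; Zfp980 is left out because a line without reads has no place on a log axis. Points are lines or cultures and bars are group means. For each of these members the SCe points (blue) lie wholly above or wholly below the Rptor fl/fl points (red), and Zfp990 in SCe, at 69.7 to 93.3 CPM, is the widest gap.

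Of the 24 members called between Rptor fl/fl and SCe, 6 were called under every alternative with all samples and in every fit that left out 1 sample (Zfp990, Zfp941, Zfp980, Zfp966, Zfp970 and Zfp950). Of the 23 called between SCe and WT, 6 were (Zfp990, Zfp941, Zfp980, Zfp981, Zfp937 and Zfp942). No called member changed direction in any of these fits.

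Some members differed as much between lines of a group as between groups. Over the 48 members with a mean of at least 50 reads, the highest line or culture of a group was compared with the lowest (log2, with 0.5 CPM added). The median difference was 0.15 in WT, 0.12 in Rptor fl/fl and 0.32 in SCe, against 0.09, 0.12 and 0.29 for all genes with as many reads. It spans 3 cultures in SCe and 2 lines in each other group, so the SCe value tends to be larger by construction. Zfp935 had 0, 2.69 and 2.37 CPM in SCe, a difference of 2.67 on the log2 scale, and 4.14 and 3.00 in WT. Its reads cannot be told from those of Gm49359, and the sum of both was 14.1, 12.0 and 11.8 CPM in SCe, 15.4 and 15.9 in WT and 14.1 and 15.9 in Rptor fl/fl. Once summed, the spread between the cultures was thus small. Zfp991 had 5.45, 19.4 and 12.2 CPM in SCe, 13.0 and 21.2 in WT and 17.1 and 34.8 in Rptor fl/fl. Here the sum kept the spread: Zfp991, Zfp992 and Zfp993 together had 19.2, 49.4 and 31.7 CPM in SCe, 24.4 and 42.2 in WT and 38.4 and 72.9 in Rptor fl/fl, and all 3 groups overlapped. Zfp951, with 97.9% own words, had 4.92, 15.2 and 6.50 CPM in SCe, 5.01 and 6.63 in WT and 4.18 and 7.61 in Rptor fl/fl. Technical libraries of 1 line differed by a median of 0.066 to 0.088 over the members, and those of other lines of the group by 0.115 to 0.177. Whether the lines differ in strain background at these genes was not tested.

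**Figure D5:**
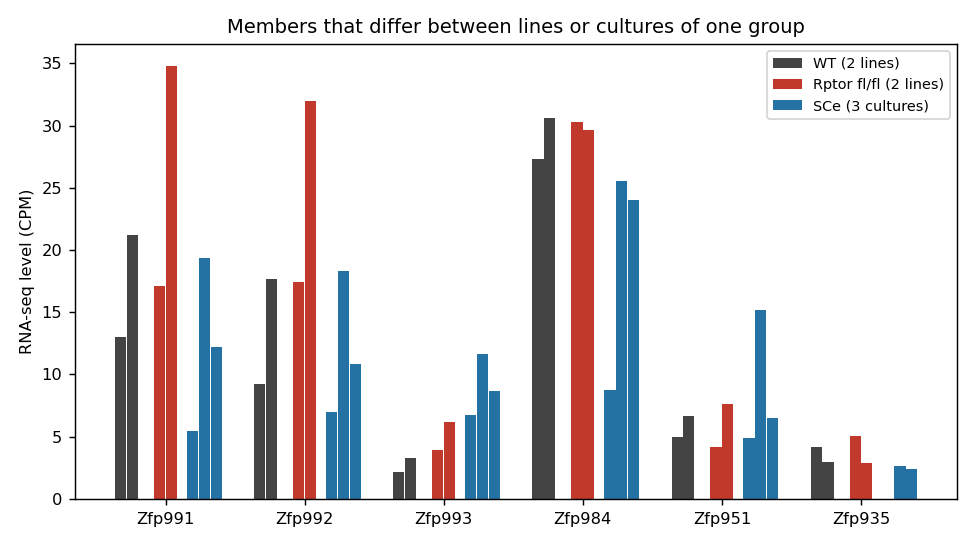
RNA-seq levels (y axis, CPM, bars from 0) of 6 members that differ between lines or cultures of a group, 1 bar per sample in the order of the replicate numbers. Zfp991 and Zfp992 differ between the lines of every group, Zfp984 is low in SCe culture 1 alone at 8.73 CPM, and Zfp935 is at 0 in that culture.

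Footprints were sparse for these genes. In organoid Ribo-seq the members took 0.0189% to 0.0248% of the reads, and 35 of the 60 counted were tested. Against SCe, the libraries labelled Rptor fl/fl had 1 member called (2.86%), and it was higher, against 16.5% of the 10817 genes tested (6.63% higher, 9.84% lower). The members' median log2 difference was -0.01 and that of all genes -0.02. The called member, Zfp942, had 44, 36 and 54 footprints in Rptor fl/fl and 1, 2 and 11 in SCe, or 7.30, 5.71 and 6.56 CPM against 0.541, 1.71 and 2.54, without overlap (log2 difference 1.86 ± 0.50, SE, adjusted p = 0.0369). This has the sign of its RNA difference, 0.49 ± 0.080. The call was lost with an offset for effective length and without any 1 of the Rptor fl/fl libraries or SCe culture 2. Zfp937, which was also lower in SCe in RNA-seq, had 60, 57 and 87 footprints in Rptor fl/fl and 3, 7 and 22 in SCe, or 9.95, 9.04 and 10.6 CPM against 1.62, 5.97 and 5.08, also without overlap, but it did not pass the test (1.22 ± 0.42, adjusted p = 0.0816). Zfp941, higher in SCe in RNA-seq, had 0, 0 and 1 footprints in Rptor fl/fl and 3, 5 and 9 in SCe. It fell below the filter on low counts, and its ratio of 47.6 in depth-adjusted footprints has an exact 95% counting interval of 7.45 to 1988. Intervals of this kind cover counting error only.

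Translation efficiency (TE), footprints relative to RNA, was compared between Rptor fl/fl and SCe organoids as the interaction of assay and group in 1 model. Of 35 members tested, 1 was called (2.86%), and it was higher in Rptor fl/fl, against 2.93% of the 10747 genes tested (1.12% higher, 1.81% lower). The members' median was 0.11 on the log2 scale and that of all genes -0.03. The Rptor fl/fl organoids of the Ribo-seq carry RPL22.HA in their label and those of the RNA-seq do not, so the assays compare different lines, and the effect of line and that of TE cannot be told apart. Rptor itself differed by -1.89 ± 0.097 in RNA and by -0.53 ± 0.34 in footprints (SE, adjusted p = 0.318 for the latter). The called member was Zfp990, with a log2 difference of 5.46 ± 0.47 (SE, adjusted p = 0.00143). Its footprints were 13, 33 and 35 in Rptor fl/fl and 10, 5 and 39 in SCe, or 2.16, 5.23 and 4.25 CPM against 5.41, 4.27 and 9.0. These overlapped and did not pass the test (-0.76 ± 0.47, adjusted p = 0.299), while its RNA differed 74.5-fold. All footprints but 2 were assigned to the 4-exon transcript, which was counted there as a sequence of 1864 bases, close to its coding part. The short transcript was counted as 178 bases. The 5-exon transcript with the same coding sequence had no entry there, so the assignment cannot tell it from the 4-exon one. With effective length as an offset the difference was 5.21 and the call was lost (adjusted p = 0.172). The 2 footprints on the short transcript were both in Rptor fl/fl library 2. Per kilobase of effective length, that library stood at 43.9 RPKM, against 1.34 and 2.63 in libraries 1 and 3. Whether this accounts for the lost call was not tested.

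In mouse intestine 24 of the 61 members counted were tested, and 1 was called (4.17%), lower in Rptor fl/fl, against 13.4% of the 11515 genes tested (7.47% higher, 5.97% lower). The members' median log2 difference was -0.22 and that of all genes -0.02. The called member, Zfp950, had 12, 17 and 22 reads in Rptor fl/fl mice and 6, 21 and 36 in WT mice, or 3.93, 5.15 and 2.77 CPM against 7.55, 9.54 and 6.54, without overlap (log2 difference -1.04 ± 0.32, SE, adjusted p = 0.0464). The call was lost without any 1 of the 6 mice and with an offset for effective length (-0.42, adjusted p = 0.691). In organoid RNA-seq the difference of Zfp950 between Rptor fl/fl and WT did not pass the test (0.20 ± 0.095, adjusted p = 0.184). Of 4 sums of near-identical genes tested in mice, 1 was called, and it was lower in Rptor fl/fl (-1.055 ± 0.32, adjusted p = 0.04). This sum of Zfp991, Zfp992 and Zfp993 had 13, 13 and 33 reads in Rptor fl/fl and 13, 17 and 39 in WT mice. In CPM these were 4.26, 3.94 and 4.15 against 16.35, 7.725 and 7.09, without overlap. No alternative fit was made for the sums. Zfp990, so different between organoid cultures, had 12, 6 and 42 reads in Rptor fl/fl mice and 14, 10 and 28 in WT mice (-0.72 ± 0.46, adjusted p = 0.346). Markers of other tissues were present in the mouse libraries: 5 smooth muscle markers summed to 1124 to 1352 CPM and 5 immune markers to 3345 to 3758 CPM over the 6 mice. In organoids these sums were at most 9.21 and 2.65 CPM in Ribo-seq and 1.6 and 0.963 CPM in RNA-seq. Pancreatic acinar markers, all 5 with reads in each mouse, summed to 799 to 2017 CPM. Within the epithelium, 5 enterocyte markers summed to 31490 to 36670 CPM over the mice and 4 goblet markers to 21060 to 27620. The 4 Paneth markers summed to 3741 to 7809 CPM and the 5 adult stem cell markers to 347 to 577. The part of these cells and tissues in the mouse values was not tested.

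The partners of KRAB zinc finger proteins were followed beside the members in a list of 18 genes, all of which were tested. Against WT, Rptor fl/fl RNA had none higher and 2 lower (11.1% called, against 22.6% of all genes), Cbx1 (log2 difference -0.49 ± 0.053, SE, adjusted p = 0.0121) and Cbx3 (-0.25 ± 0.062, adjusted p = 0.0484). Against SCe, 3 were higher and 3 lower (33.3%, against 42.7% of all genes), and SCe against WT had 3 higher and 2 lower (27.8%, against 42.3%), so the share called was below that of all genes each time. Hdac1, a histone deacetylase, was higher in SCe than in WT (0.80 ± 0.058, adjusted p = 0.00159), and the HP1 gene Cbx5 was lower (-0.76 ± 0.070, adjusted p = 0.00236). Trim28 itself was called in none of the 6 comparisons, and its log2 difference of SCe from WT was -0.17 ± 0.089 (adjusted p = 0.171). In organoid footprints 2 of the 18 were higher in Rptor fl/fl and 1 lower (16.7%, against 16.5% of all genes), in TE none was called, and in mice 3 were lower, Uhrf1, Dnmt1 and Cbx3 (16.7%, against 13.4%). The 302 other numbered Zfp genes had 22 higher and 11 lower of 278 tested for Rptor fl/fl against WT, 62 and 31 of 286 for Rptor fl/fl against SCe and 41 and 55 of 282 for SCe against WT. Their shares called, 11.9%, 32.5% and 34.0%, stood below the shares of all genes. The members' share was below for Rptor fl/fl against WT (5.66%, against 22.6%). In the SCe comparisons it was near that of all genes (41.4%, against 42.7%, and 40.4%, against 42.3%). In organoid footprints 4 of these genes were higher and 5 lower of 208 tested (4.33%, against 16.5% of all genes). In TE it was 1 and 1 of 208 (0.962%, against 2.93%), and in mice 1 and 2 of 158 (1.9%, against 13.4%). Of 12 proliferation genes, 7 were lower in Rptor fl/fl mice and none higher (58.3% called, against 13.4% of all genes). In Rptor fl/fl RNA 1 was lower against WT (8.33%, against 22.6%) and 2 against SCe (16.7%, against 42.7%). In TE 1 was higher (8.33%, against 2.93%), and none was called in SCe against WT or in organoid footprints, where 42.3% and 16.5% of all genes were.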

How the data were processed

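The authors trimmed reads with cutadapt 1.18 and quantified them with Salmon 1.1.0 (mm10, per the labels and methods), and deposited estimated counts per transcript (expected counts, not normalized). Of the Ribo-seq sequences the authors counted on, 91.0% in organoids and 75.6% in mice were shorter than annotated. Here the estimated counts were summed per gene (GENCODE vM21), leaving out 5′ open reading frame entries, and rounded, and technical libraries of a line were summed. Each comparison was fitted over all genes with edgeR 4.0.16 in R 4.3.3 (quasi-likelihood test, filterByExpr, TMM, Benjamini-Hochberg adjusted p under 0.05). Standard errors were the log2 difference divided by the square root of F. CPM (counts per 1000000) used library totals scaled by TMM factors, found separately for RNA-seq, organoid Ribo-seq and mouse libraries. TE was tested as an interaction of assay and group. Ratios of low counts have exact 95% intervals that cover counting error only.

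The members and the gene lists (KRAB machinery, proliferation, other numbered Zfp genes and cell type markers) were chosen with earlier results of these data known. Named members were those called (the 15 with the smallest adjusted p where more were), the 5 with the highest RPKM and the 3 with the largest difference within a group; a rule on protein identity was not applied. Other members are named where a cluster or sum is described, and these were chosen after their values were seen. Alternatives were DESeq2 1.42.0, RLE factors, no filter, a length offset, a replicate block, separate technical libraries and leaving out each sample. The fits were tested on simulated data. A log2 change of 1 was recovered in 18.6% of the changed genes for TE, 41.6% for organoid footprints and 89.8% for mice. For RNA-seq it was 80% (Rptor fl/fl against WT), 49.5% (against SCe) and 54.1% (SCe against WT). A log2 change of 2 was recovered in 83.7% (TE) to 100% (mice). Changes were planted only in genes above a minimum of expected reads, so these shares do not cover members with few reads. A deposited table of the authors' own translation efficiency comparison (fold changes and p-values) was not used.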

Additional observations from a re-analysis of the deposited data

Results flagged for a closer look

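The difference between the Ribo-seq and the RNA-seq effect for Zfp990, Rptor fl/fl against SCe organoids, was 5.458 on the log2 scale by the interaction test over all genes (edgeR's quasi-likelihood test, adjusted p = 0.00143). Its footprints differed by -0.76 ± 0.47 (SE) and its RNA by -6.22 ± 0.19 (SE). The same test with effective length as an offset gave an adjusted p of 0.172.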

How the results depend on the processing

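No called member changed direction under any alternative, and size factors by RLE moved no count of called members by more than 1.5 times. With the replicate number as a block, called members went from 3 to 7 (Rptor fl/fl against WT), 24 to 12 (against SCe), 23 to 9 (SCe against WT) and 1 to 0 (organoid footprints). The shared numbers are not shown to pair the samples: the deviations of same-numbered samples correlated at 0.22 to 0.41 in RNA-seq, with 2 pairs for each comparison, at -0.054 to 0.027 in organoid Ribo-seq and at -0.016 to 0.022 in mice. The block also moved the count over all genes, from 3195 to 4751, 6452 to 3413 and 6309 to 3154 in the RNA-seq comparisons. Fitting technical libraries separately gave 20 members for Rptor fl/fl against WT, with 7208 genes called in all, and 2 for TE. The length offset gave 0 for organoid footprints, TE and mice. DESeq2 gave 3 for organoid footprints and 0 for mice, and no count filter gave 3 for organoid footprints. Leaving out 1 sample gave 0 to 1 for Rptor fl/fl against WT (0 without WT line 1, 1 without each other line). It gave 8 to 31 for Rptor fl/fl against SCe (8 without either Rptor fl/fl line, 31 without SCe culture 1, 12 without culture 3) and 6 to 31 for SCe against WT (6 and 7 without WT line 1 and 2, 31 without SCe culture 1, 14 and 13 without cultures 2 and 3). It gave 0 to 4 for organoid footprints (4 without SCe culture 1), 1 to 2 for TE (2 without any SCe footprint library) and 0 to 0 for mice. The cause of these changes was not tested. Depth limits the footprint comparisons, where 35 of 60 members could be tested in organoids and 24 of 61 in mice.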

Other observations

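Entries for 5′ open reading frames were counted separately in organoid Ribo-seq and entered no comparison. Such entries existed for 57 members, and their summed reads were 356, 397 and 553 in Rptor fl/fl and 244, 94.98 and 217 in SCe. The libraries differ in depth: scaled to 1000000 gene reads of each library, the sums were 59.4, 62.2 and 67.0 in Rptor fl/fl and 123, 85.9 and 51.0 in SCe, and the groups overlapped.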
